A study of Rattus norvegicus with 12 samples.

Results

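The genes described here are the membrane-type matrix metalloproteinases *Mmp14*, *Mmp15*, *Mmp16* and *Mmp17*, the gelatinase gene *Mmp2*, and the inhibitor genes *Timp1*, *Timp2*, *Timp3*, *Timp4* and *Reck*. These 10 genes, taken by symbol from the 37209 genes of the count table, were read in the central amygdala (CeA) of 12 rats. They were chosen by the levels of *Mmp14*, *Mmp2*, *Mmp15* and *Reck* in this same contrast, for which the study named these genes, together with close relatives. For these 4 genes the difference between the groups is therefore given as a description, without a p value. The 95% intervals printed for them take no account of that choice and are not read as tests. Calls of the fit across all genes are counted for them only beside the share of all genes called, and support nothing. All 12 animals were male, wild type Sprague Dawley rats aged 14 to 16 weeks. In the CIE group (6 rats) the animals received chronic intermittent ethanol vapor and the tissue was collected directly after the last exposure, so the group holds both long exposure and intoxication. The Control group (6 rats) breathed air. The CeA, a set of largely GABAergic nuclei involved in fear, stress and alcohol drinking, was punched from frozen sections, and each rat gave 1 poly-A library. A punch holds every cell type of the region, and fewer cells of a type cannot be told apart from less RNA per cell. Rats shared cages, and the labels do not give the cage. Rats are numbered from 1 to 6 (CIE) and from 7 to 12 (Control), and an effect of that order cannot be told apart from the exposure.

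Matrix metalloproteinases are zinc enzymes that cut extracellular matrix, receptors and other proteins at the cell surface. *Mmp14*, *Mmp15* and *Mmp16* encode MT1-MMP, MT2-MMP and MT3-MMP, which cross the plasma membrane, and *Mmp17* encodes MT4-MMP, which is held there by a lipid anchor. MT1-MMP activates the secreted pro-enzyme of MMP2 in a complex that needs TIMP2 as an adaptor, although TIMP2 in excess blocks the same enzyme. The TIMPs are secreted inhibitors, and RECK is a membrane-anchored inhibitor of MMP2, MMP9 and MT1-MMP that also serves Wnt7 signalling in brain endothelial cells. In brain, these proteins take part in vessel formation, remodelling of the perineuronal matrix and synaptic plasticity.

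The libraries held 61978486 to 78441691 counts in CIE rats and 39082548 to 95647601 in Control rats. Expression is given as CPM, counts scaled to the library total, with TMM normalization, and a negative log2 fold change stands for a lower level in CIE rats. The 7 members with counts were all among the 20944 genes kept by the filter on low counts and were fitted with edgeR's quasi-likelihood model over all of those genes. FDR values are Benjamini-Hochberg adjusted over the same genes. The summed CPM of CeA neuron markers was 590 to 1839 in CIE rats and 739 to 2265 in Control rats, and all 9 markers listed passed the filter on low counts. Markers of striatal projection neurons summed to 3595 CPM in CIE rat 2 and 3981 CPM in Control rat 10, the highest values of their groups, so these punches stood apart in markers of the neighbouring striatum.

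*Timp1*, *Timp3* and *Timp4* were listed at 0 counts in all 12 rats. By the positions of RefSeq genes on the rat assembly GRCr8, used only to find neighbours because the counts were made on Rnor_6.0, *Timp1* lies inside *Syn1*, *Timp3* inside *Syn3* and *Timp4* inside *Syn2*, the synapsin genes whose introns hold TIMP genes in vertebrates. The other 7 members overlapped no other gene of the table. Synapsins bind synaptic vesicles, and their genes had counts in every rat. Over the 12 rats, *Syn1* had 84607 counts, *Syn2* 478038 and *Syn3* 23335.

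Zero counts were common among genes in this position. Of 437 protein-coding genes that lie inside another gene, 213 (48.7%) were at 0 in every rat, against 624 of 13514 (4.62%) without any overlap and 49 of 2680 (1.83%) with a partial overlap. Genes active in brain or in every cell were among the 213, such as *Omg*, a myelin glycoprotein gene inside *Nf1*, *Trappc1*, a vesicle transport gene inside *Cntrob*, and *Mrpl16*, a mitochondrial ribosomal protein gene inside *Stx3*. These 3 examples were chosen after their values were seen. The zeros of *Timp1*, *Timp3* and *Timp4* were therefore not read as absence of expression, and no difference between the groups can be given for them. The overlap and strand settings of the counting are not given in the sources used here, and their part in the zeros was not tested.

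**Figure D1:**
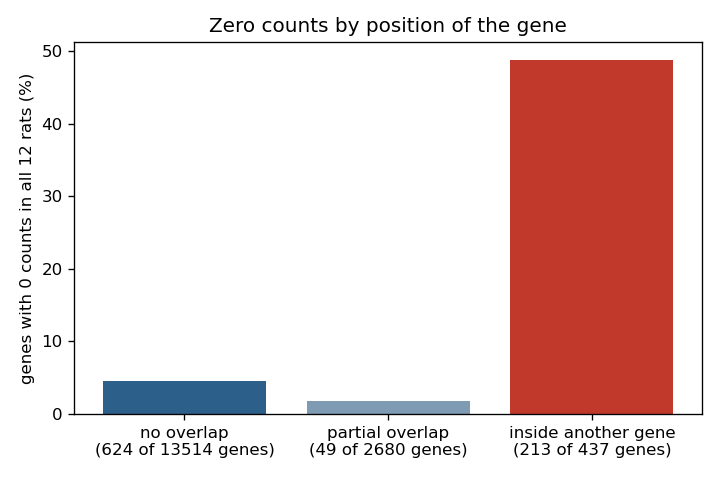
Share of protein-coding genes with 0 counts in all 12 rats (bars, percent), by whether the gene overlaps no other gene of the table, overlaps one in part or lies inside one. Genes inside another gene were at 0 in 48.7%, against 4.62% of genes without overlap.

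*Mmp14*, the gene of MT1-MMP, had the widest separation of the members. In Control rats it lay between 9.80 and 14.6 CPM with a median of 12.6 CPM, and in CIE rats between 3.81 and 5.18 CPM with a median of 4.54 CPM. The highest CIE rat was below the lowest Control rat. The log2 fold change was -1.49 (SE 0.11, 95% interval -1.73 to -1.25), a CIE mean of 0.356 times the Control mean. The raw counts did not overlap either, at 254 to 364 in CIE rats and 497 to 1323 in Control rats. The value of 497 belongs to Control rat 11, whose library was the smallest of the 12. Only 0.11% of the genes tested had raw counts that did not overlap between the groups, and 0.554% had normalized levels that did not overlap and were lower in CIE rats.

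Counts of *Mmp14* were also set against those of its partners inside each library, a measure that needs no normalization. Per 100 counts of *Timp2*, the adaptor and inhibitor of MT1-MMP, *Mmp14* gave 0.988 to 1.67 counts in CIE rats (median 1.49) and 3.42 to 4.29 in Control rats (median 3.54). Per 100 counts of *Reck* it gave at most 19.2 (median 13.1) against at least 34.9 (median 51.3). Neither ratio overlapped between the groups. The same held per 100 counts of *Mmp2*, with 55.7 to 100 in CIE rats and 134 to 208 in Control rats, and per 100 counts of *Mmp15*, with 6.33 to 9.06 and 14.6 to 23.1. Of all other genes set against the same denominators, 0.329% did not overlap per *Timp2* count, 6.51% per *Reck* count, 6.23% per *Mmp2* count and 2.21% per *Mmp15* count. *Mmp2* per 100 *Reck* counts was likewise apart, at 15.4 to 22.0 in CIE rats and 25.9 to 41.2 in Control rats. *Mmp2* per 100 *Timp2* counts overlapped, at 1.22 to 2.20 and 1.78 to 3.03. All these ratios come from the same 12 libraries and restate the differences of their parts.

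**Figure D2:**
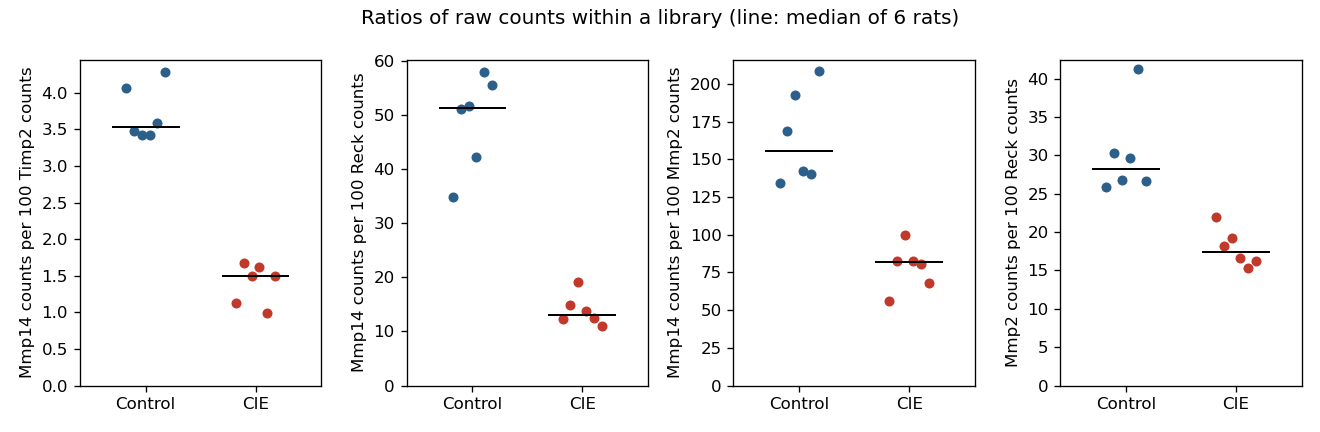
Raw counts of *Mmp14* per 100 counts of *Timp2*, *Reck* and *Mmp2*, and of *Mmp2* per 100 counts of *Reck* (vertical axes), in 6 Control and 6 CIE rats, with 1 point per rat and a line at the group median. In each of the 4 panels every CIE rat lies below every Control rat, with *Mmp14* per 100 *Timp2* counts at most 1.67 in CIE rats and at least 3.42 in Control rats.

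The other membrane-type enzymes showed smaller differences. *Mmp15*, the gene of MT2-MMP, lay between 53.4 and 70.9 CPM in CIE rats (median 56.9) and between 62.0 and 76.7 CPM in Control rats (median 65.9). The groups overlapped through CIE rat 6 alone, at 70.9 CPM, while the other 5 CIE rats were below every Control rat. The log2 fold change was -0.21 (SE 0.08, 95% interval -0.37 to -0.04). With each rat left out it ranged from -0.27 without CIE rat 6 to -0.16 without Control rat 8.

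*Mmp16* and *Mmp17* did not pass the test. *Mmp16*, the gene of MT3-MMP, lay between 38.3 and 50.6 CPM in CIE rats (median 42.5) and between 38.5 and 43.7 CPM in Control rats (median 41.0), so the Control values fell within the CIE range. Its log2 fold change was 0.09 (SE 0.07, 95% interval -0.06 to 0.24, edgeR FDR 0.793), and the two-sided exact permutation test of the group means gave p = 0.249. *Mmp17*, the gene of lipid-anchored MT4-MMP, lay between 47.1 and 72.4 CPM in CIE rats (median 56.0) and between 49.2 and 85.6 CPM in Control rats (median 57.4). Its groups overlapped over most of their range. The log2 fold change was -0.08 (SE 0.14, 95% interval -0.38 to 0.23, edgeR FDR 0.930, exact permutation p = 0.662), and its sign turned without Control rat 10, to 0.05.

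*Mmp2* encodes gelatinase A, the secreted enzyme that MT1-MMP activates. It lay between 4.72 and 7.01 CPM in CIE rats (median 5.72) and between 6.42 and 9.80 CPM in Control rats (median 7.46), which are 328 to 537 and 295 to 942 raw counts. Below every Control rat lay 4 of the 6 CIE values, and all 6 were under the Control median. The log2 fold change was -0.41 (SE 0.13, 95% interval -0.69 to -0.14).

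Of the inhibitors, *Timp2* and *Reck* were measured. *Timp2*, the adaptor in MMP2 activation, lay between 274.9 and 386.2 CPM in CIE rats (median 322.6) and between 240.9 and 383.5 CPM in Control rats (median 357.0). Control rat 10, at 240.9 CPM, was the lowest of the 12, and the groups overlapped. The log2 fold change was -0.07 (SE 0.11, 95% interval -0.31 to 0.17, edgeR FDR 0.918, exact permutation p = 0.628). *Reck*, the membrane-anchored inhibitor, lay between 27.0 and 40.8 CPM in CIE rats (median 31.3) and between 23.8 and 28.6 CPM in Control rats (median 25.7). Above every Control rat lay 5 of the 6 CIE values, and all 6 exceeded the Control median. The log2 fold change was 0.33 (SE 0.09, 95% interval 0.13 to 0.53), a CIE mean of 1.26 times the Control mean.

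**Figure D3:**
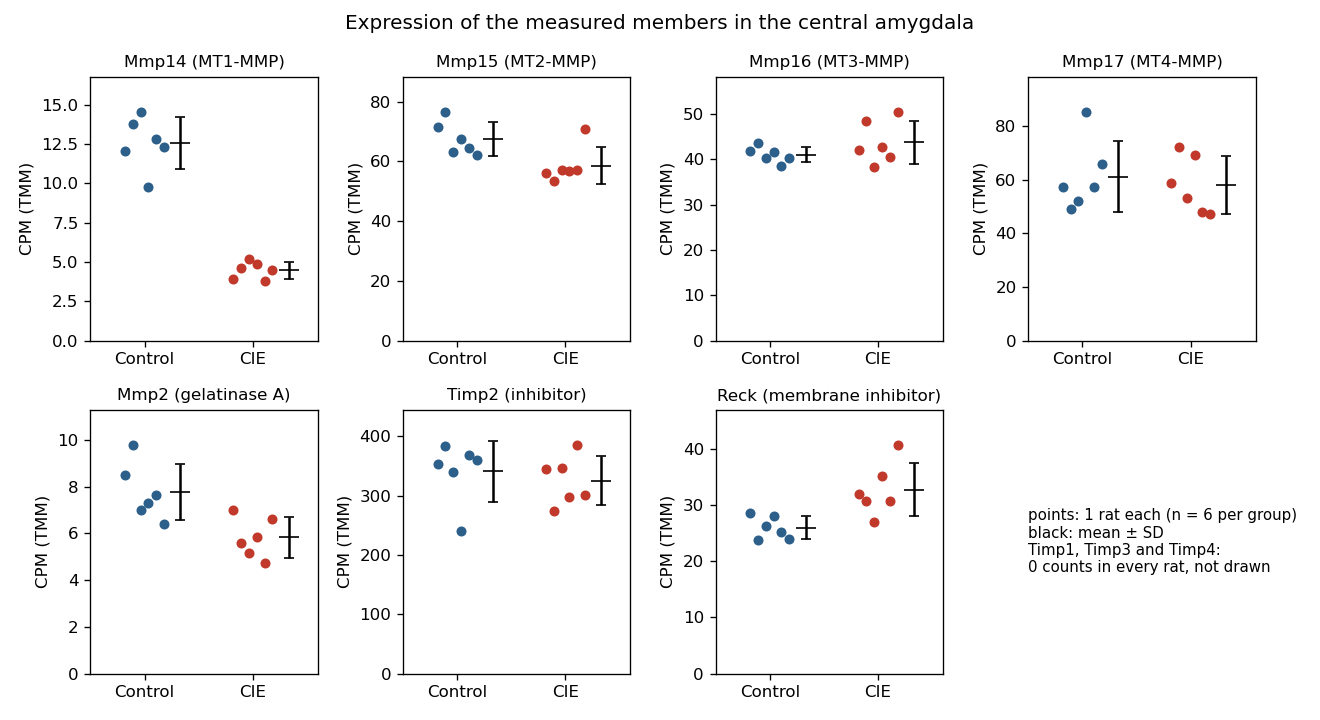
Levels of the 7 members with counts (CPM with TMM normalization, vertical axes starting at 0), with 1 point per rat, 6 Control and 6 CIE rats, and the mean ± SD in black. *Mmp14* is the gene whose groups do not overlap, at 3.81 to 5.18 CPM in CIE rats and 9.80 to 14.6 CPM in Control rats.

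At 5% FDR, 1 of the 7 members fitted was called in edgeR, *Mmp14*, against 0.363% of all genes, and *Mmp2*, *Mmp15* and *Reck* were not. At a nominal p value below 0.05, 3 members were lower and 1 was higher in CIE rats, where 8.31% of all genes passed, 4.31% lower and 4.0% higher. At 5% FDR, DESeq2 called *Mmp14* and 1.18% of all genes, edgeR with library size only called *Mmp14* and 0.349%, and limma-voom called *Mmp14*, *Reck* and 1.12%. Since these differences chose the members, nothing is read from the counts. The median log2 fold change of the 7 members was -0.08, and that of all genes tested was 0.00.

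The differences were refitted with each rat left out, with other tools and scalings, and with marker scores of cell types as covariates. *Mmp14* stayed between -1.55 and -1.44 on the log2 scale with each rat left out, and between -1.57 and -1.37 in every other fit. *Mmp2* moved to -0.20 with the myelinating oligodendrocyte score and to -0.21 with the mural score, and *Mmp15* to -0.06 and -0.05 with the same scores. *Reck* lay between 0.26 and 0.38 with each rat left out and between 0.30 and 0.60 in the other fits.

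**Figure D4:**
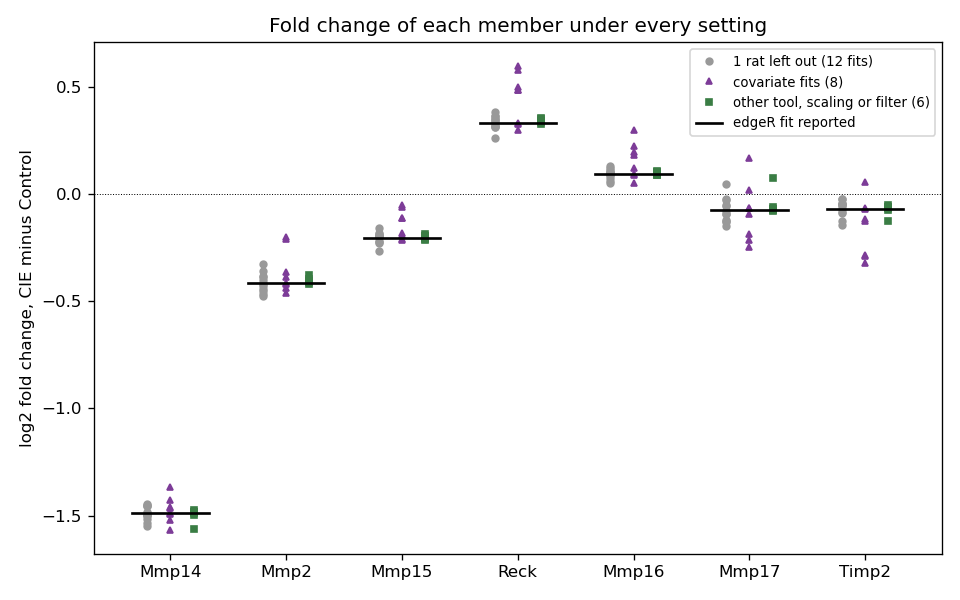
Log2 fold change (CIE minus Control, vertical axis) of each member in the reported edgeR fit (black line), with 1 rat left out (grey), with covariates (purple) and with another tool, scaling or filter (green). *Mmp14* stays between -1.57 and -1.37 in every fit, whereas *Mmp17* and *Timp2* have values on both sides of 0.

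Of 17 other MMP genes listed, 6 were tested, and the other 11 did not pass the filter on low counts. None of the 6 had a nominal p value below 0.05 in edgeR, and their median log2 fold change was 0.13. The smallest p values were those of *Mmp23* (log2 fold change 0.42, FDR 0.714) and *Mmp28* (0.29, FDR 0.714). *Mmp24*, the gene of a further transmembrane MMP enriched in neurons, was at 74.5 ± 5.34 CPM (SD, n = 6) in CIE rats and 76.5 ± 8.39 CPM in Control rats (log2 fold change -0.04, FDR 0.934). *Mmp9*, the gelatinase studied most in synaptic plasticity, averaged 0.559 and 0.586 CPM, too low for a precise comparison.

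A further list of 16 genes was mixed. It held genes that activate, anchor or clear these enzymes, the inducer gene *Bsg* and the testican genes *Spock1*, *Spock2* and *Spock3*. None of the 16 passed 5% FDR in edgeR, and the median was -0.07. At a nominal p value below 0.05 in edgeR 3 differed, all lower in CIE rats, where 4.31% of all genes were. The 3 genes became 1 without Control rat 8. They were *Cav1*, the gene of the caveolar protein caveolin-1 (25.7 ± 4.80 against 32.7 ± 2.04 CPM, log2 fold change -0.35, FDR 0.287), *Bsg*, the gene of the MMP inducer basigin (376 ± 47.2 against 440 ± 28.8 CPM, -0.23, FDR 0.424), and the integrin gene *Itgb1*. *Furin*, the protease that removes the pro-domain of the membrane-type enzymes, had a log2 fold change of -0.08 (FDR 0.860).

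RECK acts with the receptor GPR124 in Wnt7 signalling. The gene of GPR124 itself, *Adgra2*, was not among the genes tested. Of 5 partner genes tested, none passed 5% FDR in edgeR, and the median was -0.02. At a nominal p value below 0.05 in edgeR 1 was higher and 1 lower in CIE rats, against 4% and 4.31% of all genes. *Fzd4*, the gene of the Wnt receptor frizzled-4, averaged 13.1 ± 2.06 CPM with CIE and 9.08 ± 0.701 CPM without, with log2 fold change 0.53 (SE 0.11, edgeR FDR 0.0594). It passed 5% FDR in DESeq2 (FDR 0.00102) and limma-voom (FDR 0.00916). With 1 rat left out in edgeR, its FDR was below 5% in 1 of the 12 fits and reached 0.175 without Control rat 9. The co-receptor gene *Lrp5* was at 13.9 ± 1.62 and 16.9 ± 2.11 CPM (-0.28, FDR 0.425). The ligand genes had log2 fold changes of -0.10 for *Wnt7a* (FDR 0.835) and -0.02 for *Wnt7b*.

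TIMPs and RECK also inhibit ADAM and ADAMTS enzymes. Of 9 such genes, 2 were lower in CIE rats at a nominal p value below 0.05 in edgeR, where 4.31% of all genes were. Of these, 1 passed 5% FDR, *Adamts4*, against 0.258% of all genes lower at that threshold. The study named *Adamts4* and *Adam17* on the same samples, so their differences are not independent evidence. *Adamts4* encodes an enzyme that cuts aggrecan and other lecticans. It ranged from 11.1 to 31.2 CPM in CIE rats and from 29.1 to 58.1 CPM in Control rats (log2 fold change -1.16, SE 0.22, FDR 0.0368). Its FDR was below 5% in 3 of the 12 fits with 1 rat left out and reached 0.0976 without Control rat 8, and its log2 fold change was -0.48 with the myelin score. *Adam17*, the sheddase gene of tumor necrosis factor, was at 23.9 ± 3.39 and 30.9 ± 1.86 CPM (-0.37, SE 0.09, FDR 0.124). *Adam10*, the sheddase gene of the amyloid precursor protein and Notch, had a log2 fold change of -0.07 (FDR 0.788). The median of the 9 genes was -0.07.

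**Figure D5:**
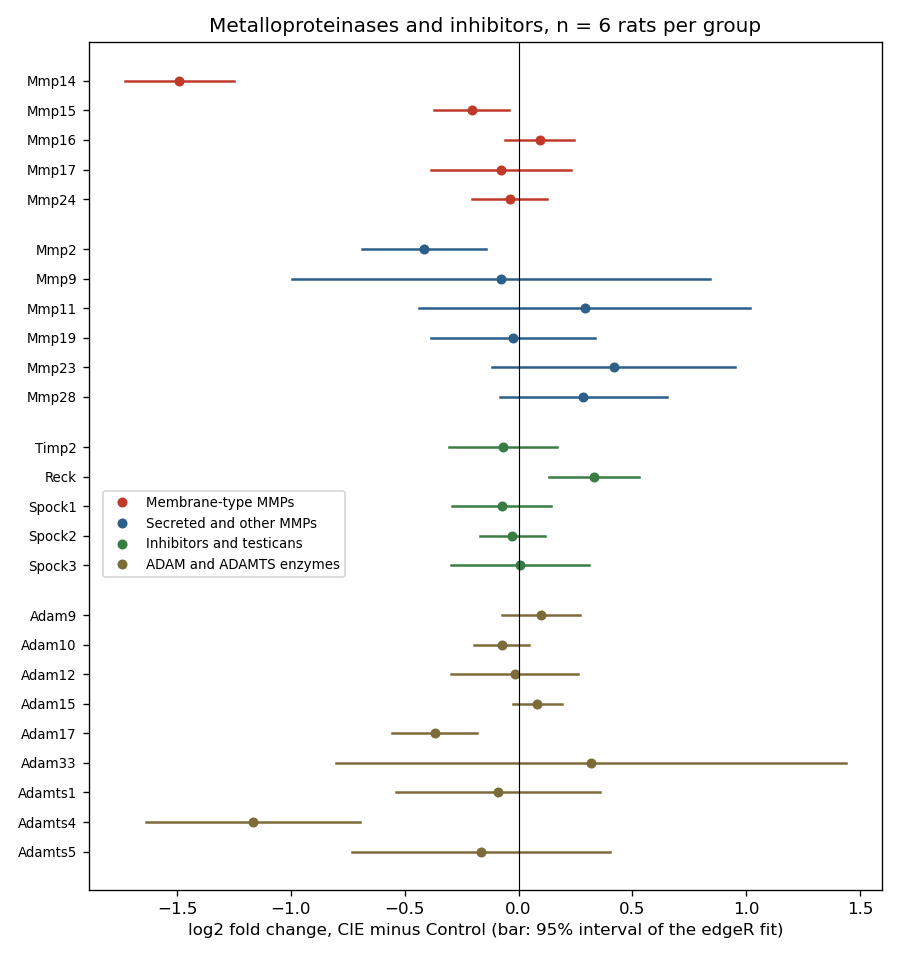
Log2 fold change (CIE minus Control, horizontal axis) with the 95% interval of the edgeR fit for membrane-type MMPs, other MMPs, inhibitors with the testican genes *Spock1*, *Spock2* and *Spock3*, and ADAM and ADAMTS enzymes, n = 6 rats per group. *Mmp14* (-1.49) and *Adamts4* (-1.16) lie farthest below 0.

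The matrix and surface proteins that these enzymes cut formed the list with the most differences. Of 16 substrate genes, 14 were lower in CIE rats, 9 of them at a nominal p value below 0.05 and 5 at 5% FDR, and the median log2 fold change was -0.26. Of all genes tested, 4.31% were lower at the nominal threshold and 0.258% at 5% FDR. The list holds genes that the study named on the same samples, so its direction is not independent evidence. The 5 genes were those of collagens and of nidogen, proteins of vessel basement membrane and fibrous matrix, and in all 5 the groups did not overlap, as in 0.893% of all genes. *Col4a1* was at 42.3 ± 5.49 CPM in CIE rats and 68.2 ± 6.26 CPM in Control rats (-0.69, FDR 0.00675) and passed 5% FDR with any rat left out. *Nid1* was at 15.7 ± 3.86 and 27.4 ± 3.54 CPM (-0.80, FDR 0.0234), with an FDR of 0.0752 without Control rat 8 and below 5% in 5 of the 12 fits with 1 rat left out. *Col3a1* (-1.07, FDR 0.0243), *Col1a1* (-1.04, FDR 0.0270) and *Col4a5* (-0.43, FDR 0.0328) reached FDR values of 0.0734 and 0.0802 without CIE rat 4 and of 0.111 without Control rat 9, in that order, and were below 5% in 5, 5 and 3 of those fits. With the endothelial marker score as a covariate none of the 5 passed 5% FDR in edgeR, *Col4a1* being at -0.52 (FDR 0.122). With the myelin score *Col1a1* was at -0.66 and *Nid1* at -0.52. *Col1a1* overlaps *Sgca* in part. The lecticans of perineuronal matrix did not pass the test, with log2 fold changes of -0.06 for *Bcan*, -0.12 for *Ncan* and -0.07 for *Vcan*, and all 3 FDR values were at least 0.792. *Mbp*, the gene of the myelin protein that MMPs can cut, had a log2 fold change of -0.54 (FDR 0.450). The 3 synapsin genes that hold the TIMP genes did not pass the test, with log2 fold changes of 0.04 for *Syn1*, 0.04 for *Syn2* and -0.07 for *Syn3*.

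Markers of several cell types differed in level between the groups. At a nominal p value below 0.05, where 4.31% of all genes were lower, 9 of 10 markers of myelinating oligodendrocytes were lower in CIE rats, with summed levels of 3388 to 8236 CPM against 5532 to 10084 CPM. None of these 10 passed 5% FDR. Of 9 mural cell markers tested, 6 were lower at the nominal threshold, with sums of 122 to 202 CPM against 162 to 187 CPM. At 5% FDR 1 of the 9 was lower, where 0.258% of all genes were. *Myh11*, also on that list, was at 0 counts in every rat, which was not read as absence of expression. Of 9 endothelial markers 4 were lower at the nominal threshold (203 to 273 against 237 to 302 CPM) and none at 5% FDR. Meningeal fibroblast markers summed to 44.5 to 84.6 CPM against 78.6 to 114 CPM. Of these 10, 2 were lower at the nominal threshold and 1 at 5% FDR. In 1 of the 10 the groups did not overlap, as in 0.893% of all genes. The summed level of red blood cell markers did not overlap between the groups, at 89.9 to 285 CPM in CIE rats and 362 to 662 CPM in Control rats. Taken singly, 4 of these 6 markers did not overlap, as in 0.893% of all genes. At the nominal threshold 4 of the 6 were lower, and 3 were lower at 5% FDR, where 0.258% of all genes were. Of 9 CeA neuron markers, *Crh*, *Tac3* and *Nts* were lower at the nominal threshold, none at 5% FDR in edgeR. All 8 cortical glutamatergic neuron markers had a positive log2 fold change, with a median of 1.23 and sums of 51.1 to 476 CPM against 54.3 to 197 CPM, 1 of them at the nominal threshold and none at 5% FDR. Astrocyte markers summed to 2536 to 3083 CPM and 2464 to 2845 CPM, with a median log2 fold change of 0.02. At the nominal threshold 2 of these 10 were lower and 2 higher in CIE rats, against 4.31% and 4% of all genes. None of the 10 passed 5% FDR in edgeR. The part of these cell types in the differences of *Mmp14*, *Mmp2*, *Mmp15*, *Reck* and the substrate genes was not tested. The covariate fits cannot decide it, since markers of several of these cell types were themselves lower in CIE rats. In those fits *Mmp14* was at -1.49 with the astrocyte score and -1.57 with the myelin score. It was at -1.46 with the endothelial score, -1.37 with the mural score and -1.47 with the red blood cell score. It no longer passed 5% FDR in the last of these, where the score itself separates the groups.

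Covariation of the members from punch to punch was read within the groups. After the group means were removed, 0 of 21 pairs of members passed 5% FDR over the 12 rats in 100000 permutations, for Pearson's r or Spearman's rho, and 2 pairs had an unadjusted permutation p below 0.05 by Pearson's r and 2 by Spearman's rho. *Mmp14* had Pearson's r between -0.38, with *Mmp17*, and 0.30, with *Timp2*. Both values pool opposite signs, with r = 0.32 in CIE rats and -0.94 in Control rats for *Mmp17*, and -0.50 and 0.82 for *Timp2*, which was at -0.03 without the 2 farthest rats. Over the 13 cell type scores its r lay between -0.36 and 0.34. The strongest of 91 pairs of a member and a cell type score was *Timp2* with striatal projection neuron markers (r = -0.89, rho = -0.77). The adjusted permutation p was 0.0646 for r and 0.325 for rho, and r was -0.61 without the 2 rats farthest from the median of the score. It was -0.78 in CIE rats and -0.96 in Control rats. *Mmp17* had the opposite sign with the same score (r = 0.82, adjusted permutation p = 0.124). No pair of this family passed 5% FDR, and 16 had an unadjusted permutation p below 0.05 by Pearson's r and 8 by Spearman's rho.

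The genes most like *Mmp14* over all 12 rats, by Pearson's r of log2 CPM with the group difference included, were *Fabp7* (0.97), RGD1565166 (0.95), *Ccdc141* (0.95), *Pcdh12* (0.94) and LOC103694908 (0.94). *Fabp7* encodes a fatty acid binding protein of radial glia and astrocytes, and *Pcdh12* an endothelial protocadherin. With the group means removed the 5 most alike were other genes, LOC103692476 (0.91), RGD1560815 (0.89), LOC100362048 (0.88), *Trim30* (0.87) and LOC103691093 (0.86). Of these, RGD1560815 averaged 0.176 CPM and LOC100362048 0.856 CPM over the 12 rats, levels too low for a precise reading. In both rankings the 5 genes were picked as the highest r among all other genes tested. The values come from the same 12 libraries, and no test was made.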

How the data were processed

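Poly-A RNA of 12 CeA punches was sequenced, with 1 library per rat. The authors mapped reads to Rnor_6.0 with BWA, counted reads per gene with HTSeq and deposited raw counts, without a filter. Gene names were trimmed of blanks. Members were matched by symbol. Gene positions came from RefSeq on GRCr8 and served only to find overlapping genes.

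The tests used edgeR 4.0.16 in R 4.3.3 (TMM, filterByExpr, quasi-likelihood F test, no covariates, 6 against 6 rats), with DESeq2 1.42.0, limma 3.58.1 and sva 3.50.0 as alternatives, while permutations and figures used Python 3.11.15 with numpy 2.4.6, pandas 2.3.3, scipy 1.17.1 and matplotlib 3.10.9. The authors used DESeq2 1.26. Exact permutation tests compared group means of log2 CPM, two-sided. Correlations used log2 CPM with a prior count of 2 and 100000 permutations of rats within groups, Benjamini-Hochberg adjusted within each family. Marker scores were means over each cell type's markers.

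The members and gene lists were chosen with earlier results of these data known. The rule named the members, the list genes at 5% FDR, the 2 with the smallest p of each list, and the 5 genes most like *Mmp14* with and without the group means. *Mmp9*, *Mmp24*, *Furin*, *Itgb1*, *Wnt7a*, *Wnt7b*, *Adam10*, *Bcan*, *Ncan*, *Vcan*, *Mbp*, *Syn1*, *Crh*, *Tac3* and *Nts* fall outside it and were named after their values were seen. Totals of 39082548 to 95647601 counts limit the precision for genes near 1 CPM. Levels were not compared between genes, since no transcript lengths were used here. *Adgra2* was not analysed here.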

Additional observations from a re-analysis of the deposited data

Results flagged for a closer look

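In 44 groups of 6 rats, over the members and the named genes of the lists, the highest or lowest rat was checked for a gap to the others beyond Dixon's 95% critical value of 0.625. Chance gives about 1 such gap in 20 groups, and 6 were found. *Mmp15* was at 70.9 CPM in CIE rat 6, against 53.4 to 57.2 CPM in the other CIE rats. The same rat stood apart in 2 basement membrane genes, with *Col4a1* at 52.7 CPM against 36.4 to 42.2 CPM and *Nid1* at 23.1 CPM against 12.9 to 16.0 CPM. It also had the highest CIE sums of myelinating oligodendrocyte (8236 CPM), endothelial (273 CPM), mural (202 CPM), meningeal fibroblast (84.6 CPM) and astrocyte markers (3083 CPM), the lowest sum of CeA neuron markers (590 CPM), and the highest CIE levels of *Reck* (40.8 CPM) and *Mmp16* (50.6 CPM). *Timp2* was at 240.9 CPM in Control rat 10, against 339.9 to 383.5 CPM in the other Control rats, and this rat had the highest sum of striatal projection neuron markers. *Bsg* was at 467.8 CPM in CIE rat 3, and *Col1a1* at 37.1 CPM in Control rat 9. The causes were not tested.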

How the results depend on the processing

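The sign of *Mmp14*, *Mmp2*, *Mmp15*, *Mmp16* and *Reck* was the same in every fit. The number of members at 5% FDR was 1 in edgeR, 2 in limma-voom, 2 with the meningeal fibroblast score and 0 with the red blood cell score, both scores added after the data were seen. *Reck* joined *Mmp14* in the counts of 2. With the red blood cell score 2 members had a nominal p value below 0.05 in edgeR, against 4 without it, and *Mmp14* was at -1.47 but not past 5% FDR. With each rat left out the members at a nominal p value below 0.05 numbered 3 to 4. Of the 55 list genes tested, 6 passed 5% FDR in edgeR, against 0.363% of all genes. The number was 9 in DESeq2 (1.18% of all genes) and 11 in limma-voom (1.12%). It was 1 with the cortical and striatal scores and 2 with the myelin score. With the endothelial score it was 0 in edgeR, where 13 had a nominal p value below 0.05. The number ranged from 1 to 9 with each rat left out: it was 1 without CIE rat 1, 2, 4 or 5 or Control rat 9, 2 without Control rat 11, 3 without Control rat 7 or 8, and 9 without CIE rat 6. Values that turned in sign were small: *Mmp17* (0.073 in limma-voom, 0.017 with the endothelial score, 0.17 with the red blood cell score, and from -0.15 without CIE rat 2 to 0.046 without Control rat 10), *Timp2* (0.058 with the cortical and striatal scores) and *Syn2* (-0.0044 with the cortical and striatal scores, -0.12 with the myelin score, -0.16 with the endothelial score, and from -0.029 without CIE rat 1 to 0.11 without CIE rat 6). The cause was not tested. With counts divided by DESeq2's size factors, 0 pairs of either correlation family passed 5% FDR, as with TMM. No paired analysis was possible because the CIE and Control rats share no replicate numbers. The comparison of levels between genes per length was not run, since no transcript lengths were used here.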
